A study of Arabidopsis thaliana with 24 samples.

Results

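The comparison described here asked which transcripts of the cytokinin-treated Arabidopsis root differed after 24 h when the auxin-insensitive protein axr3-1 was induced together with the cytokinin. It set the 3 libraries of 24 h EST + BAP treatment against the 3 libraries of 24 h BAP treatment, 6 of the 24 libraries of the series. All plants were homozygous for pANT:XVE>>axr3-1-YFP, 9-d-old when they were moved to treatment plates, so the BAP libraries carried the same transgene, without the inducer. BAP plants received 1 µM 6-benzylaminopurine, a synthetic cytokinin, and EST + BAP plants received 1 µM BAP together with 5 µM estradiol (EST), which activates the XVE transcription factor. The 3 DMSO libraries, which received neither compound, and the 3 libraries of EST alone (5 µM) from the same 24 h experiment are given beside the results, and a separate 4 h experiment of the same design is used only for side-by-side values. RNA came from a segment of the main root that began 0.5 cm and ended 2 cm below the hypocotyl, and the study repeated each treatment 3 times. XVE was placed under the ANT promoter. After 24 h of EST the study saw axr3-1-YFP in the cambium and in part of the phloem and periderm, while RNA was taken from the whole segment. No library received EST without carrying the transgene, so an effect of EST itself cannot be told apart from that of axr3-1.

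Auxin acts by causing the degradation of Aux/IAA proteins, repressors that hold AUXIN RESPONSE FACTOR (ARF) transcription factors inactive at the promoters of auxin-responsive genes. The axr3-1 mutation stabilises the Aux/IAA protein AXR3 (also called IAA17), so the repressor persists in the presence of auxin. The vascular cambium is the ring of dividing cells that thickens the root, producing xylem on its inner side and phloem on its outer side, and both cytokinin and auxin are known to promote its activity.

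The 6 libraries held between 18955795 and 40759829 estimated counts. Ribosomal RNA took 32.5% of the counts of BAP replicate 1, 4.39 to 4.66% of the other BAP libraries and 6.31 to 16.1% of the EST + BAP libraries, and among the DMSO libraries replicate 1 stood apart with 54.1%. Of 34212 genes in the table, 21081 had enough counts to be tested. A gene was called higher or lower when its log2 fold change was at least 0.5 in size with an adjusted p of at most 0.05, from edgeR's quasi-likelihood test with Benjamini-Hochberg adjustment over all genes tested, and all adjusted p-values below come from that test. At these thresholds 2447 genes (11.6% of those tested) were higher and 2480 (11.8%) were lower after 24 h EST + BAP treatment than after BAP treatment, and the median log2 fold change of all genes tested was 0.01. Counts of called list members in this comparison are to be read beside these shares of 11.6% and 11.8%. The libraries of the groups did not overlap in 53.6% of all genes tested and in 98.7% of called genes. Statements below that they did not overlap are to be read beside those shares. Changes of at least 2-fold were called for 849 higher and 742 lower genes. Without BAP replicate 1, 2577 genes were called higher and 2559 lower. Levels are given as CPM, the counts of a gene scaled to a common library total after normalisation by the trimmed mean of M values (TMM), for replicates 1, 2 and 3 in this order, and n is 3 libraries in each group throughout. In RNA of a whole root segment, fewer cells of a type and less RNA per cell cannot be told apart.

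The level of AXR3 gave no check of the labels at this time point. AXR3 (AT1G04250, chr1:1136078-1138663, TAIR10.1) stood at 205, 189 and 198 CPM in the BAP libraries and at 159, 140.3 and 129.6 CPM in the EST + BAP libraries, and the counts of the native gene and of the axr3-1 transgene cannot be separated in a table of gene counts. Its log2 fold change of -0.46 ± 0.09 (SE; adjusted p = 0.00341) missed the size threshold, and it passed with -0.55 when EST + BAP replicate 1 was left out. In the 4 h experiment the log2 fold change of AXR3 was 0.79. TPPD (AT1G35910), which encodes a trehalose-6-phosphate phosphatase, differed clearly between the labelled groups. It was chosen by its adjusted p in this same comparison, so it is no check of the labels either. It stood at 1.23, 1.20 and 1.42 CPM in the BAP libraries and at 22.8, 21.4 and 19.2 CPM in the EST + BAP libraries. It rose by 4.04 on the log2 scale (SE 0.12, adjusted p = 5.47e-06), with a log2 fold change of 3.51 in the 4 h libraries, and it was the only trehalose phosphatase called higher of 9 tested.

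**Figure D1:**
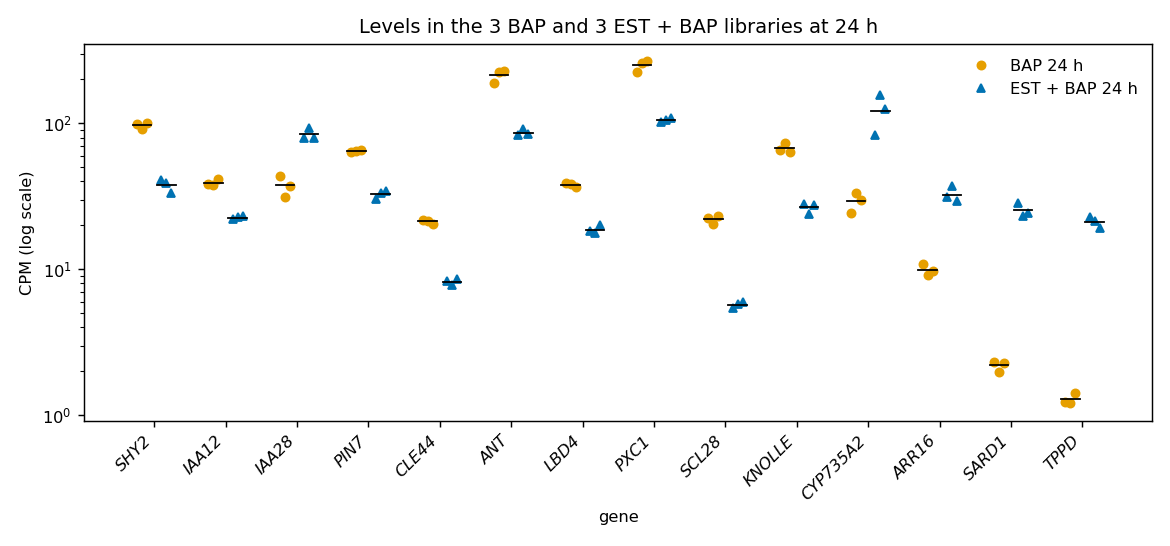
Levels of 14 genes (CPM, log axis) in each of the 3 BAP (circles) and 3 EST + BAP (triangles) libraries of 24 h, with the group mean as a line. The groups do not overlap in any of these genes, which are all called genes, beside 53.6% of all genes tested and 98.7% of called genes: SHY2 lies between 92.2 and 101 CPM with BAP and between 33.3 and 41.0 CPM with EST + BAP, and TPPD between 1.20 and 1.42 CPM and between 19.2 and 22.8 CPM.

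The Aux/IAA repressor genes, most of which are themselves switched on by auxin, were mostly lower. Of 23 Aux/IAA genes tested, AXR3 not counted, 15 were called lower and 1 higher, against 11.8% and 11.6% of all genes, and their median log2 fold change was -0.58. SHY2 (AT1G04240), the Aux/IAA gene IAA3 that cytokinin is known to induce in the root meristem, stood at 98.7, 92.2 and 101 CPM in the BAP libraries and at 41.0, 39.1 and 33.3 CPM in the EST + BAP libraries. Every EST + BAP library lay below every BAP library, and the log2 fold change was -1.36 ± 0.09 (SE, adjusted p = 2.71e-05). IAA12 (AT1G04550), the BODENLOS repressor of embryonic root and vascular development, stood at 38.7, 37.7 and 41.3 CPM with BAP and 22.0, 22.7 and 23.0 CPM with EST + BAP, and fell by 0.80 on the log2 scale (SE 0.07). IAA5 (AT1G15580) was lower in every EST + BAP library, at 1.68, 1.47 and 1.20 CPM against 4.87, 5.16 and 5.34 CPM, with a log2 fold change of -1.81 ± 0.16. IAA4 fell by 0.96 (adjusted p = 3.76e-05). IAA28 (AT5G25890), a repressor known from lateral root formation whose transcript auxin does not raise, was the member that went the other way. It stood at 43.7, 31.4 and 37.5 CPM with BAP and 79.3, 93.0 and 79.8 CPM with EST + BAP, and rose by 1.17 on the log2 scale (SE 0.12, adjusted p = 0.000207). SHY2 shares 640 bases with a gene on the opposite strand and IAA5 shares 48 bases with CYCA2;3, and the sources used here do not state whether kallisto was run with its strand option.

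The 250 bases before the annotated start of these genes are printed because ARF proteins bind TGTCTC and TGTCGG, both of which are shown in capitals where they occur on either strand (sequences from RefSeq, TAIR10.1, written 5′ to 3′ in the direction of transcription). In IAA5 the capitals CCGACA are TGTCGG read on the other strand.
SHY2 (chr1:1129690-1129939, - strand): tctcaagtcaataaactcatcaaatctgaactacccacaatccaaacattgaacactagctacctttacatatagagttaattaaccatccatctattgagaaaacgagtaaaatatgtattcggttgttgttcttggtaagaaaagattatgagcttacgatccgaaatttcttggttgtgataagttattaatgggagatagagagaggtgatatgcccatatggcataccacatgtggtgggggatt
IAA5 (chr1:5366498-5366747, - strand): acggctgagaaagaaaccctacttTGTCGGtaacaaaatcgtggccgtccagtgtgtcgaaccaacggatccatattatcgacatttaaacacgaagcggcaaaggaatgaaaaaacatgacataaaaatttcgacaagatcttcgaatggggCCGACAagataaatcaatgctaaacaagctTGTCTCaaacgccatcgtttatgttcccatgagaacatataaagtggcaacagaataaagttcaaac
IAA12 (chr1:1240044-1240293, + strand): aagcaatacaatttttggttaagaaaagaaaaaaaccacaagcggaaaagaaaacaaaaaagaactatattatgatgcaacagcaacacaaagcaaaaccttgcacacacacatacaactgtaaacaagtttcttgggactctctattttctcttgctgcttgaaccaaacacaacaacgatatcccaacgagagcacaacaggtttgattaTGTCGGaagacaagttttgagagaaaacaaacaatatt
IAA28 (chr5:9032954-9033203, + strand): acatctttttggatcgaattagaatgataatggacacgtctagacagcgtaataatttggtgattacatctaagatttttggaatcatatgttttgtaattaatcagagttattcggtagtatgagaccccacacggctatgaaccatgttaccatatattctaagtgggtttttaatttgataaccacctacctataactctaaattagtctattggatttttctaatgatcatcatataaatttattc
IAA5 holds 3 matches, at -226, -97 and -67 from the start, and IAA12 holds 1, at -38. SHY2, which fell, and IAA28, which rose, hold none in this window, nor does IAA4. Of the 15 Aux/IAA genes called lower, 9 hold TGTCTC or TGTCGG within these 250 bases, beside 14.8% of all tested nuclear genes, 18.3% of all genes called lower and 12.9% of all genes called higher. These are counts of letters in a window and not of bound sites. The share was not counted for Aux/IAA genes that were not called lower, so it cannot link the letters to the fall.

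Auxin carriers were lower, while receptors and activating ARFs were mostly not called. Of 11 auxin transport genes tested, 7 were called lower and none higher, and their median was -0.52 on the log2 scale. PIN proteins export auxin from cells and set the direction of its flow. PIN7 (AT1G23080) stood at 63.8, 65.0 and 66.2 CPM in the BAP libraries and 30.2, 33.1 and 34.4 CPM in the EST + BAP libraries, and fell by 1.00 on the log2 scale (SE 0.07, adjusted p = 3.51e-05). The levels of PIN7 with EST + BAP lay well below those with BAP in all 3 libraries. PIN3 and PIN4 fell by 0.96 and 1.04, and the auxin importers LAX2 and LAX3 by 0.96 and 0.51. PIN6 had a log2 fold change of -0.52 (adjusted p = 0.0110), which was not called without BAP replicate 2 or without EST + BAP replicate 3 (-0.42 at the smallest). PIN5, which encodes a carrier of the endoplasmic reticulum, had a log2 fold change of 0.48 ± 0.23 (adjusted p = 0.128) and was not called, but had 0.65 and was called without EST + BAP replicate 1. Of 11 auxin receptor and activating ARF genes, AFB1 was called, lower by 0.55 on the log2 scale, and just missed the size threshold when BAP replicate 2 was left out. None of 6 tested auxin-induced GH3 and LBD genes was called.

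In the TDIF-PXY pathway, CLE43 and CLE44 of the 4 ligand genes and the transcription factor genes WOX4, ANT and AIL5 were called lower, and the receptor gene was not called. In this pathway TDIF peptides made in the phloem, encoded by CLE41, CLE42, CLE43 and CLE44, bind the receptor kinase PXY on cambial cells, which maintains division through WOX4. Of 13 genes tested 5 were called lower and none higher, and the median of their log2 fold changes was -0.41. CLE44 (AT4G13195) stood at 21.9, 21.4 and 20.5 CPM in the BAP libraries and 8.29, 7.75 and 8.52 CPM in the EST + BAP libraries. The spread within each group was small beside the difference, and CLE44 fell by 1.38 on the log2 scale (SE 0.08, adjusted p = 1.54e-05), although it shares 492 bases with AT4G13190 on the same strand. CLE43 fell by 1.31, while CLE41 (-0.41, adjusted p = 0.00614) and CLE42 (-0.12, adjusted p = 0.697) were not called. PXY stood at 108, 140.2 and 140 CPM with BAP and 95.4, 111 and 113 CPM with EST + BAP, ranges that overlap, with a log2 fold change of -0.28 ± 0.11 (adjusted p = 0.0790). PXL1, a PXY-like receptor gene, was not called either (0.34, adjusted p = 0.0525), and it shares 3295 bases with AT1G08592 on the opposite strand. WOX4 had a log2 fold change of -0.54 ± 0.13 (adjusted p = 0.00983) and was called, but stayed under the size threshold when EST + BAP replicate 1, BAP replicate 2 or BAP replicate 3 was left out (-0.46, -0.48 and -0.46).

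ANT (AT4G37750), which encodes an AP2-type transcription factor of dividing cambial cells and whose promoter drives XVE in this line, stood at 190, 223 and 229 CPM in the BAP libraries and 83.0, 90.8 and 85.1 CPM in the EST + BAP libraries. Every EST + BAP library lay below every BAP library, the log2 fold change was -1.31 ± 0.09 (SE, adjusted p = 2.87e-05), and the related gene AIL5 fell by 1.04. Among 19 other cambial regulators tested 9 were called lower and 3 higher. PXC1 (AT2G36570), a receptor-like kinase known from secondary wall formation, stood at 226, 261 and 267 CPM with BAP and 102, 106 and 109 CPM with EST + BAP, and fell by 1.25 on the log2 scale (SE 0.08, adjusted p = 2.73e-05). LBD4 (AT1G31320), a LATERAL ORGAN BOUNDARIES DOMAIN transcription factor of the cambium, stood at 39.3, 38.3 and 36.6 CPM and 18.3, 17.6 and 20.19 CPM, and fell by 1.03 (SE 0.08, adjusted p = 4.13e-05). The receptor kinase gene ER, the homeobox gene KNAT1 and the AP2-type gene TINY2 fell by 1.63, 0.87 and 1.04. LBD3, at -0.47 ± 0.08 (adjusted p = 0.00260), missed the size threshold, and was called without BAP replicate 1 or EST + BAP replicate 3 (-0.52 at the largest). Neither DOF1.6 (-0.42, adjusted p = 0.0409), which reached -0.51 and a call without EST + BAP replicate 1, nor DOF3.4 (-0.31), SVP (0.19) or PTL (-0.12) was called. The 3 genes that rose were LBD1 (1.77), the ethylene response factor gene ERF072 (0.89) and the DOF gene HCA2 (0.64). ERF072 stood at 124, 123 and 123 CPM with BAP and 238, 234 and 213 CPM with EST + BAP. Of the 5 HD-ZIP III genes, which pattern xylem and cambium, PHB was called, lower by 0.79.

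**Figure D2:**
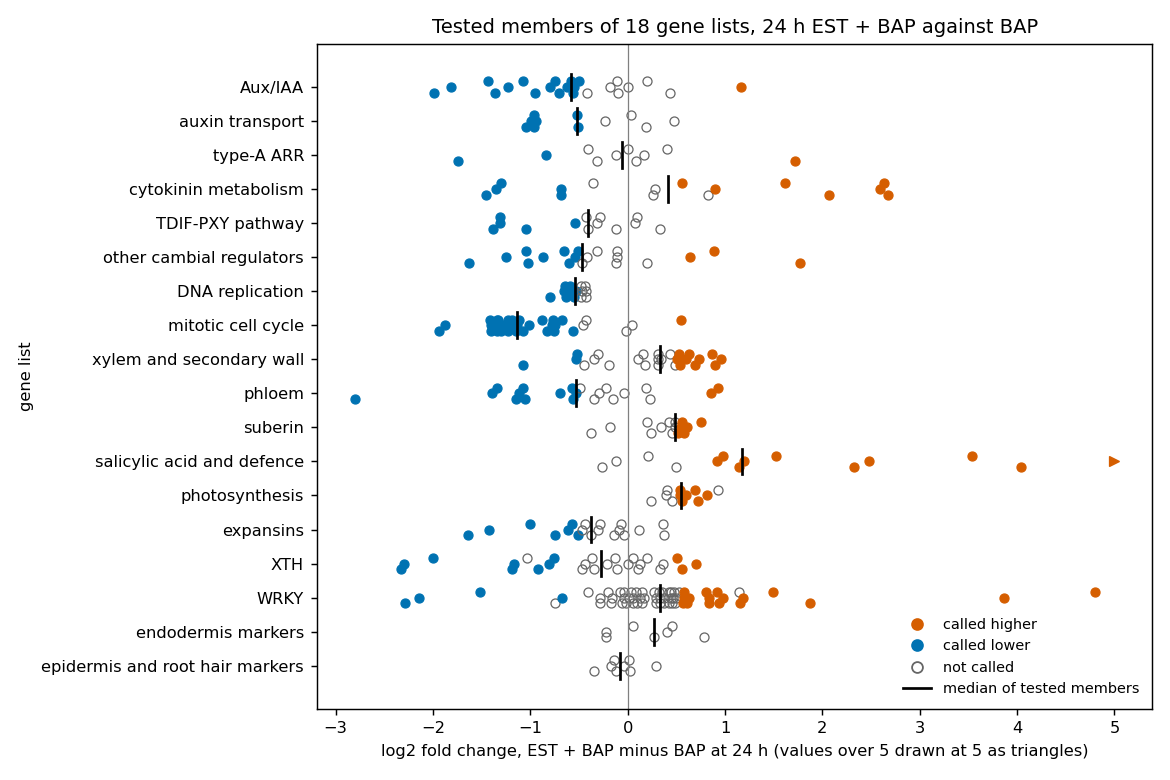
Log2 fold change of EST + BAP minus BAP at 24 h (x axis) for each tested member of 18 gene lists (rows); filled orange points were called higher, filled blue points lower, open points were not called, and the black line is the list's median. The medians run from -1.14 for the mitotic genes to 1.17 for the salicylic acid and defence genes, and no endodermis or epidermis marker was called.

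The IPT and CYP735A genes of cytokinin synthesis and 1 gene of cytokinin breakdown were higher, LOG3 and 4 genes of breakdown were lower, and most response regulators were not called. Type-A response regulators (ARR genes) are the standard early transcripts of cytokinin response and dampen it. Of 10 tested, 1 was called higher and 2 lower, beside 11.6% and 11.8% of all genes. ARR5 (AT3G48100) stood at 332, 304 and 359 CPM in the BAP libraries and 346, 336 and 312 CPM in the EST + BAP libraries. These ranges overlap, and the log2 fold change was 0.00 ± 0.08 (adjusted p = 0.986), beside 2.04 for BAP against DMSO, a comparison that shares the BAP libraries. ARR7 fell by 0.84 and ARR15 by 1.75, the latter from 12.4, 14.2 and 13.8 CPM to 4.59, 4.23 and 3.102 CPM. ARR16 (AT2G40670) rose, from 10.9, 9.15 and 9.68 CPM to 31.1, 37.0 and 29.2 CPM, by 1.72 on the log2 scale (SE 0.11, adjusted p = 2.73e-05). ARR15 and ARR16 therefore moved in opposite directions in the same 6 libraries.

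Of 16 cytokinin metabolism genes tested 7 were called higher and 5 lower. CYP735A1 and CYP735A2 encode the hydroxylases that make trans-zeatin. CYP735A2 (AT1G67110) stood at 24.2, 33.5 and 29.8 CPM with BAP and 83.8, 157 and 126 CPM with EST + BAP, and rose by 2.07 on the log2 scale (SE 0.22, adjusted p = 0.000219). The 3 EST + BAP libraries differed among themselves, with replicate 1 lowest, but all exceeded the BAP libraries. CYP735A1 rose by 2.63. IPT genes encode the enzymes of the first step of cytokinin synthesis, and 4 of them were called higher. IPT3 rose by 2.59, IPT1 by 1.62 and IPT5 by 0.90. IPT7 was called at 2.68, from 0.0984, 0.0775 and 0 CPM with BAP to 0.448, 0.356 and 0.414 CPM with EST + BAP. IPT7 had enough counts to be tested only through its EST + BAP libraries, so the size of its rise is uncertain. Cytokinin oxidases (CKX) degrade the hormone. CKX7 (AT5G21482) stood at 32.7, 34.0 and 35.4 CPM with BAP and 14.4, 12.8 and 12.9 CPM with EST + BAP, and fell by 1.35 (SE 0.08, adjusted p = 1.53e-05). CKX6 and CKX1, which lie over opposite-strand genes for 2234 and 2057 bases, fell by 1.45 and 1.30, and CKX4 rose by 0.55. CKX3 fell by 0.69, with -0.56 and no call (adjusted p = 0.0713) without BAP replicate 2. LOG3 (AT2G37210), whose enzyme releases active cytokinin from its nucleotide, stood at 14.02, 12.1 and 9.73 CPM with BAP and 8.85, 7.50 and 5.87 CPM with EST + BAP, and fell by 0.68 (SE 0.17, adjusted p = 0.0137).

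Genes of cell division were lower. Of 33 mitotic genes tested 28 were called lower and 1 higher, at a median log2 fold change of -1.14. SCL28 (AT1G63100), a GRAS transcription factor of the cell cycle, stood at 22.6, 20.4 and 23.1 CPM in the BAP libraries and 5.41, 5.80 and 5.96 CPM in the EST + BAP libraries, and fell by 1.94 on the log2 scale (SE 0.09, adjusted p = 9.38e-06). KNOLLE (AT1G08560), the syntaxin that builds the new cell plate, stood at 65.3, 73.0 and 63.9 CPM and 28.2, 24.0 and 27.6 CPM, and fell by 1.35 (SE 0.09, adjusted p = 2.74e-05). For both genes the highest EST + BAP library lay far below the lowest BAP library. KNOLLE shares 464 bases with NPQ1 on the opposite strand. The kinase gene AUR2, which shares 877 bases with an opposite-strand gene, fell by 1.88. The B-type cyclins CYCB1;1, CYCB1;2 and CYCB2;4 fell by 1.12, 1.20 and 1.14, and the mitotic kinase CDKB1;1 by 1.19. CYCA2;2 had a log2 fold change of 0.55 (adjusted p = 0.0139) and was called higher, but was not called without BAP replicate 1, EST + BAP replicate 2 or BAP replicate 3 (0.48 at the smallest). Summed over the 33 genes, the level was 861 to 1114 CPM in the BAP libraries and 426 to 458 CPM in the EST + BAP libraries, beside 280.0 to 355 CPM with DMSO and 151 to 184 CPM with EST alone.

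Genes of DNA replication were lower by a smaller amount. All 14 tested had negative log2 fold changes, between -0.80 and -0.42 with a median of -0.54, and 8 of them passed the size threshold. The count rose to 13 without BAP replicate 1. MCM3 (AT5G46280), a subunit of the replicative helicase, stood at 44.0, 50.2 and 47.1 CPM in the BAP libraries and 28.4, 31.1 and 31.5 CPM in the EST + BAP libraries, and fell by 0.63 on the log2 scale (SE 0.08, adjusted p = 0.000368). MCM5, of the same helicase, fell by 0.55, and the sliding clamp gene PCNA1 by 0.80. Of 9 D-type cyclins, which start the cycle, CYCD4;1 and CYCD6;1 fell by 1.05 and 0.97, and CYCD1;1 rose by 1.25. CYCD6;1 shares 847 bases with AT4G03260 on the opposite strand. CYCD3;3 was called at -0.50, on the threshold, and not with DESeq2 size factors, with DESeq2, without the filter on low counts, or without EST + BAP replicate 1 or BAP replicate 2. CYCD3;1 stood at 110.3, 146 and 149.8 CPM with BAP and 91.5, 124 and 108 CPM with EST + BAP, ranges that overlap, and was not called (-0.33 ± 0.14, adjusted p = 0.0951). Of 9 CDK inhibitors, KRP3 and KRP7 fell by 1.07 and 1.33 and KRP1 rose by 0.55.

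The windows of 250 bases before the start of 2 mitotic genes and 2 MCM genes, chosen as examples that hold a match, are printed because MYB3R factors bind AACGG in mitotic promoters, and E2F factors bind TTTCCCGC or TTTGGCGC in those of replication genes. Capitals mark AACGG, or CCGTT on the other strand, in SCL28 and KNOLLE, and the E2F letters, or GCGCCAAA on the other strand, in MCM3 and MCM5.
SCL28 (chr1:23402177-23402426, - strand): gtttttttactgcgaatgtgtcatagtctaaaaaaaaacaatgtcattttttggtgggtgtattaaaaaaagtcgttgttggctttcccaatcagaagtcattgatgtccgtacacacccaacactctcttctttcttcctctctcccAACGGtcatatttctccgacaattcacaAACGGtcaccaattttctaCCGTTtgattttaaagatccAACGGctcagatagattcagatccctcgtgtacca
KNOLLE (chr1:2711001-2711250, - strand): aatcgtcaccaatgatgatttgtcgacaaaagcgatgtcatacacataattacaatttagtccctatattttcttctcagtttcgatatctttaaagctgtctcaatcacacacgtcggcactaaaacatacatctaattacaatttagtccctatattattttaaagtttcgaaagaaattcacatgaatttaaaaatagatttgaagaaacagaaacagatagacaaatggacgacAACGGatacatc
MCM3 (chr5:18773707-18773956, - strand): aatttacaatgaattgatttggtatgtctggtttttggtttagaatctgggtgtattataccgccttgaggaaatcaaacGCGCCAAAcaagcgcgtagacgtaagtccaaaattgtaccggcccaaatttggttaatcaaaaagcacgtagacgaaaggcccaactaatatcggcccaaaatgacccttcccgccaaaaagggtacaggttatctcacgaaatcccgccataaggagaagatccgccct
MCM5 (chr2:3527501-3527750, - strand): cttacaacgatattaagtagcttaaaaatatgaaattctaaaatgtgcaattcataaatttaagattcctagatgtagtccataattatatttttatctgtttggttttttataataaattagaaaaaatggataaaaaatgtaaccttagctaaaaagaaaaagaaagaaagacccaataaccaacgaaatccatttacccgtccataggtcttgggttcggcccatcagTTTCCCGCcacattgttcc
SCL28 holds AACGG on either strand at -102, -74, -55 and -35, and KNOLLE at -12. MCM3 holds an E2F match at -170 and MCM5 at -19. Of 3 other called genes searched the same way and not printed, AUR2 holds AACGG at -6, and CYCA2;3 and PCNA1 hold no match. AACGG lies in the window of 16 of the 28 mitotic genes called lower, beside 21.7% of all tested nuclear genes, 25.6% of all genes called lower and 16.9% of all called higher. The E2F letters lie in 3 of the 8 replication genes called lower, beside 1.01% of all tested nuclear genes. Members of these lists that were not called lower were not counted, so these shares cannot link the letters to the fall either.

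Xylem and phloem genes differed in direction. Of 26 xylem and secondary wall genes tested 10 were called higher and 3 lower, at a median log2 fold change of 0.33. XCP1 (AT4G35350), a protease of dying xylem vessels, stood at 68.9, 72.7 and 76.0 CPM in the BAP libraries and 129.6, 127 and 139 CPM in the EST + BAP libraries, and rose by 0.86 on the log2 scale (SE 0.07, adjusted p = 5.68e-05). XCP2 rose by 0.73, the lignin laccase LAC17 by 0.96, and the secondary wall cellulose synthases CESA7 and CESA8 by 0.60 and 0.52. VND7, which triggers vessel formation, rose by 0.90. T5L1, a transcription factor of vascular cell division, was among the 3 that went the other way, at 56.4, 74.0 and 69.2 CPM with BAP and 30.7, 33.8 and 30.3 CPM with EST + BAP (-1.07 ± 0.10, adjusted p = 0.000152). The others were ACL5 (-0.52) and VND5 (-0.53), neither of which was called without EST + BAP replicate 3 (-0.48 and -0.41), when the count of lower xylem genes was 1, or without BAP replicate 3 (-0.44 and -0.51). VND5 was not called without BAP replicate 2 (-0.52) or with thinned counts (-0.49) either.

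Of 21 phloem genes tested 11 were called lower and 2 higher, at a median log2 fold change of -0.54. SEOR1 (AT3G01680), which encodes a filament protein of sieve elements, stood at 70.1, 63.0 and 68.0 CPM with BAP and 26.4, 29.0 and 35.3 CPM with EST + BAP, and fell by 1.15 on the log2 scale (SE 0.11, adjusted p = 0.000121). SEOR2 fell by 1.05, and NAC020, a transcription factor of developing sieve elements, by 2.80, from 1.38, 1.20 and 1.096 CPM to 0.149, 0.189 and 0.166 CPM. PEAR1 and CLE45, which act early in phloem formation, fell by 1.08 and 1.39. CLE45 shares 884 bases with AT1G69587 on the opposite strand. SUC2, the sucrose loader of companion cells, was higher, at 34.2, 34.8 and 38.9 CPM against 19.8, 21.4 and 18.3 CPM (0.85 ± 0.09), and SMXL3 rose by 0.92. Summed over the 22 listed phloem genes, the level was 495 to 509 CPM in the BAP libraries and 362 to 400.3 CPM in the EST + BAP libraries.

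The listed markers of endodermis, epidermis and root tip gave no call, at the low levels given below, while some suberin genes did. A missing call does not show equal levels. None of 7 endodermis markers, 8 epidermis and root hair markers or 2 root tip markers (PLT1 and PLT2) that could be tested was called, and their summed levels overlapped between the groups. The 8 listed endodermis markers summed to 35.2 to 41.0 CPM with BAP and 30.2 to 42.9 CPM with EST + BAP, and the 8 epidermis markers to 12.1 to 19.0 CPM and 10.3 to 24.0 CPM. The root tip and lateral root primordium markers summed to 1.33 to 1.51 CPM and 1.24 to 1.57 CPM, with 1 of the 4 at 0 counts in BAP replicates 1 and 3. Of 15 suberin genes, which build the water-tight wall layer of endodermis and cork, 6 were called higher and none lower. The fatty acid hydroxylase gene CYP86A1 (AT5G58860) stood at 183, 102 and 149.6 CPM with BAP and 229, 252 and 254 CPM with EST + BAP (0.76 ± 0.18, adjusted p = 0.0101). The count of 6 fell to 2 without BAP replicate 2 and to 2 without EST + BAP replicate 2. PER15 was not called, with -0.37 ± 0.11 (adjusted p = 0.0227), and reached -0.50 and a call when EST + BAP replicate 2 was left out.

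Genes of salicylic acid synthesis and defence were higher. Salicylic acid is made mainly through ICS1 and PBS3, under the transcription factors SARD1 and CBP60G, and is linked to immunity through PAD4 and SAG101. Of 14 genes tested 10 were called higher and none lower, at a median log2 fold change of 1.17. SARD1 (AT1G73805) stood at 2.31, 1.98 and 2.28 CPM in the BAP libraries and 28.5, 23.2 and 24.3 CPM in the EST + BAP libraries, and rose by 3.53 on the log2 scale (SE 0.12, adjusted p = 5.47e-06). It shares 640 bases with GIP2 on the opposite strand. PBS3 (AT5G13320) stood at 0.640, 0.310 and 0.685 CPM and 8.58, 9.05 and 8.89 CPM, and rose by 4.04 (SE 0.21). In both genes the groups were separated by a wide gap, and the 3 EST + BAP libraries were close to each other. ICS1, CBP60G, PAD4 and SAG101 rose by 1.52, 2.48, 1.20 and 1.14. The glucanase gene PR2, a standard salicylic acid marker, had 0 counts in all 3 BAP libraries and 573 counts over the EST + BAP libraries, at 5.19, 5.74 and 6.62 CPM. Set against the floor of 3 counts over the BAP group, it was at least 131.6-fold higher with EST + BAP. Without BAP, PR2 stood at 1.22, 0.439 and 1.35 CPM with EST alone and at 0, 0 and 0.0385 CPM with DMSO.

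WRKY transcription factors, many of which act in defence, were called higher for 17 and lower for 4 of 63 tested, at a median log2 fold change of 0.33. Of all genes tested, 11.6% were called higher and 11.8% lower. WRKY51 (AT5G64810) stood at 0.689, 1.32 and 0.868 CPM in the BAP libraries and 15.1, 13.2 and 14.7 CPM in the EST + BAP libraries, and rose by 3.86 on the log2 scale (SE 0.19, adjusted p = 9.40e-06). WRKY75 rose by 1.87, WRKY53 by 1.50 and WRKY33 by 1.19. WRKY49, WRKY71 and TTG2, a regulator of hair and seed coat fate, went the other way and fell by 2.29, 1.52 and 2.14. WRKY41, at -0.68 (adjusted p = 0.0378), was the last of the 4 and was not called without BAP replicate 2, EST + BAP replicate 2 or EST + BAP replicate 3 (-0.48, -0.69 and -0.56), with DESeq2, with thinned counts or in a joint fit of all 4 groups. The jasmonate list of 15 tested genes had a median of -0.41. Its 4 members called lower were the repressor genes JAZ2, JAZ3, JAZ6 and JAZ9, and these rested on single libraries. JAZ2 stood at 123, 53.4 and 40.3 CPM with BAP, with replicate 1 above the others, and at 34.7, 28.0 and 27.1 CPM with EST + BAP, and the count of lower genes fell from 4 to 0 without EST + BAP replicate 2 or 3 and to 2 without EST + BAP replicate 1 or BAP replicate 1, or with DESeq2.

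**Figure D3:**
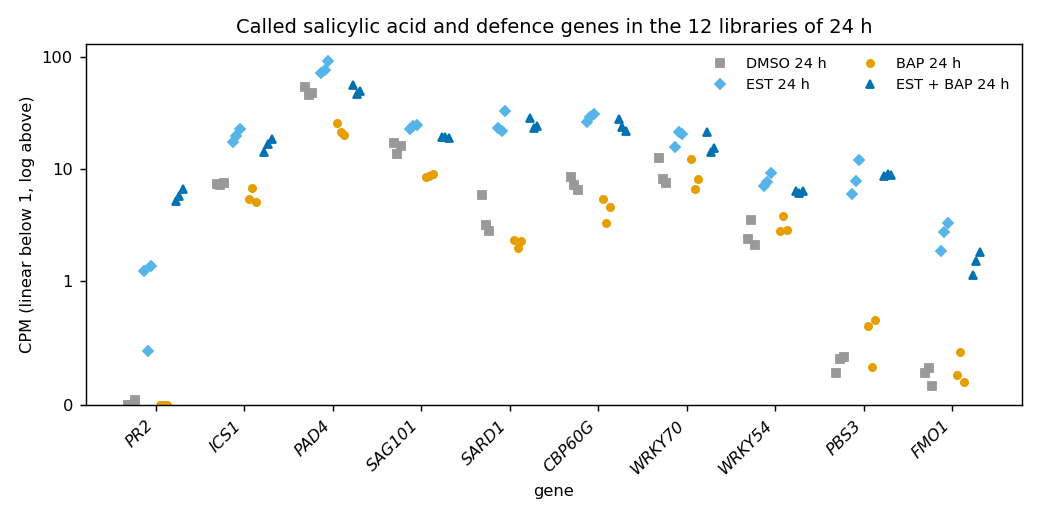
Levels of the 10 called salicylic acid and defence genes (CPM; the axis is linear below 1 and logarithmic above) in each of the 12 libraries of 24 h. The EST + BAP libraries (triangles) lie above the BAP libraries (circles) in all 10 genes, which were drawn because they were called higher, beside 26.5% of all genes tested: SARD1 at 23.2 to 28.5 CPM against 1.98 to 2.31 CPM, and PR2 at 5.19 to 6.62 CPM against 0.

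Genes that loosen the cell wall were lower on balance. Of 19 expansin genes tested 7 were called lower and none higher, at a median log2 fold change of -0.38. EXPA15 (AT2G03090) stood at 360.4, 365 and 428 CPM in the BAP libraries and 194, 191 and 192 CPM in the EST + BAP libraries, and fell by 1.00 on the log2 scale (SE 0.08, adjusted p = 6.83e-05). EXPA8 fell by 1.65, EXPA13 by 0.74 and EXPB3 by 0.57. XTH genes encode enzymes that cut and rejoin xyloglucan chains, and of 26 tested 8 were called lower and 3 higher. XTH4 (AT2G06850) stood at 157, 159 and 170.3 CPM with BAP and 71.1, 75.9 and 69.4 CPM with EST + BAP, and fell by 1.17 (SE 0.07, adjusted p = 1.87e-05). XTH8 and XTH9 fell by 2.01 and 0.92. XTH20 rose by 0.70, and XTH31 (0.51) and TCH4 (0.56) were also called higher, though neither without BAP replicate 2 or EST + BAP replicate 2, when the count was 1. XTH31 also lost its call without BAP replicate 1 or EST + BAP replicate 3 (0.48 and 0.49), and TCH4 without EST + BAP replicate 1 or BAP replicate 3 (0.50 and 0.52). Of 36 tested SAUR genes, which are small auxin-responsive growth genes, 9 were called higher and 4 lower, beside 11.6% and 11.8% of all genes. AT1G75590 rose most among them, from 1.23, 1.63 and 1.23 CPM to 10.1, 10.3 and 6.99 CPM (2.74 ± 0.21, adjusted p = 4.71e-05).

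Photosynthesis genes were modestly higher. Of 12 tested 7 were called higher and none lower, at a median log2 fold change of 0.55, and all 12 values were positive, between 0.24 and 0.93. LHCA4 (AT3G47470), a light-harvesting antenna protein of photosystem I, stood at 89.2, 57.9 and 83.2 CPM in the BAP libraries and 126, 122 and 130.3 CPM in the EST + BAP libraries (0.72 ± 0.14, adjusted p = 0.00452). BAP replicate 2 was the lowest of the BAP libraries. The count of 7 was 3 without BAP replicate 2, 4 without EST + BAP replicate 3 and 11 without BAP replicate 1. None of 6 greening regulators was called. In the hypoxia list the sucrose synthase gene SUS1, the haemoglobin gene HB1 and the transcription factor gene HRE1 rose by 1.30, 0.90 and 0.84, while PDC1 and SUS4 fell by 0.76 and 0.68, of 11 tested.

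The same induction was also made without cytokinin, in libraries that the comparison above does not use. Of the 2447 genes called higher with EST + BAP against BAP, 2320 (94.8%) also had a positive log2 fold change for EST against DMSO at 24 h, and of the 2480 called lower 2390 (96.4%) had a negative one, beside 78.7% of all genes tested with the same sign in both. The median log2 fold change without BAP was 0.48 for the genes called higher, whose median with BAP was 0.81, and -0.62 for those called lower, whose median with BAP was -0.76. Genes called by a threshold in the comparison with BAP have larger values there by the choice itself. In the separate 4 h experiment the medians of EST + BAP against BAP for these genes were 0.12 and -0.15. Across the 21081 genes the 24 h log2 fold changes with and without BAP had a Pearson correlation of 0.77 and a Spearman correlation of 0.74, given as a description, since genes of the same libraries are not independent.

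Whether the EST effect differed with and without BAP was tested by the interaction term of edgeR's quasi-likelihood test over the 12 libraries of 24 h. The ANT promoter drives XVE, and the level of ANT itself differed between EST + BAP and EST alone. A changed response to axr3-1 and a changed amount of axr3-1 therefore cannot be told apart by this term. A positive term (EST effect with BAP minus EST effect without BAP) was called for 213 genes (0.98% of 21734 tested) and a negative term for 92 (0.423%). These counts depended on single libraries and fell to 79 positive genes without EST + BAP replicate 3 and to 17 negative genes without BAP replicate 3, and were 163 and 56 without DMSO replicate 1. ANT stood at 95.2, 88.1 and 120.3 CPM with DMSO and 12.4, 20.21 and 18.4 CPM with EST alone. Its log2 fold change was -2.58 without BAP and -1.31 with BAP, and the difference was 1.27 ± 0.22 (SE, adjusted p = 0.0176). PXC1 likewise fell by less with BAP on the log2 scale, with -2.11 without BAP, -1.25 with BAP and a difference of 0.87 (adjusted p = 0.0156). The term compares log2 ratios, so an equal fall in CPM from a higher level counts as a smaller effect. EXPB3 stood at 585, 489.8 and 561 CPM with DMSO and 129, 114 and 151 CPM with EST alone, and its difference was 1.48 ± 0.15 (adjusted p = 0.00219).

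Among the gene lists, positive terms were called for 5 of 19 expansins, 4 of 14 replication genes and 3 of 21 phloem genes, beside 0.98% of all genes, and the medians without and with BAP were -0.86 and -0.38 for expansins, -1.16 and -0.54 for replication genes and -0.58 and -0.54 for phloem genes. MCM3 had -1.43 without BAP and -0.63 with BAP, a difference of 0.80 (adjusted p = 0.0174), which was not called without BAP replicate 3 or EST + BAP replicate 3 (adjusted p = 0.0521 and 0.0575) or with thinned counts (0.115). The mitotic genes had medians of -0.75 without BAP and -1.14 with BAP, and AUR1 alone of the 33 had a called term (-0.83, adjusted p = 0.0326). AXR3 had a called term of -0.70 (adjusted p = 0.0167), and no gene of the Aux/IAA list, which leaves AXR3 out, or of the auxin transport and cytokinin metabolism lists had one. TPPD rose by less with BAP on the log2 scale, with 5.57 without BAP, 4.04 with BAP and a difference of -1.53 (adjusted p = 0.0168). Its call was lost without DMSO replicate 3 or BAP replicate 3 (adjusted p = 0.0542 and 0.0574) and with nuclear counts thinned to equal totals (0.157). BAP itself, compared with DMSO in libraries that include the same BAP group, gave medians of 1.68 for mitotic and 1.13 for replication genes and 1.08 for ANT.

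**Figure D4:**
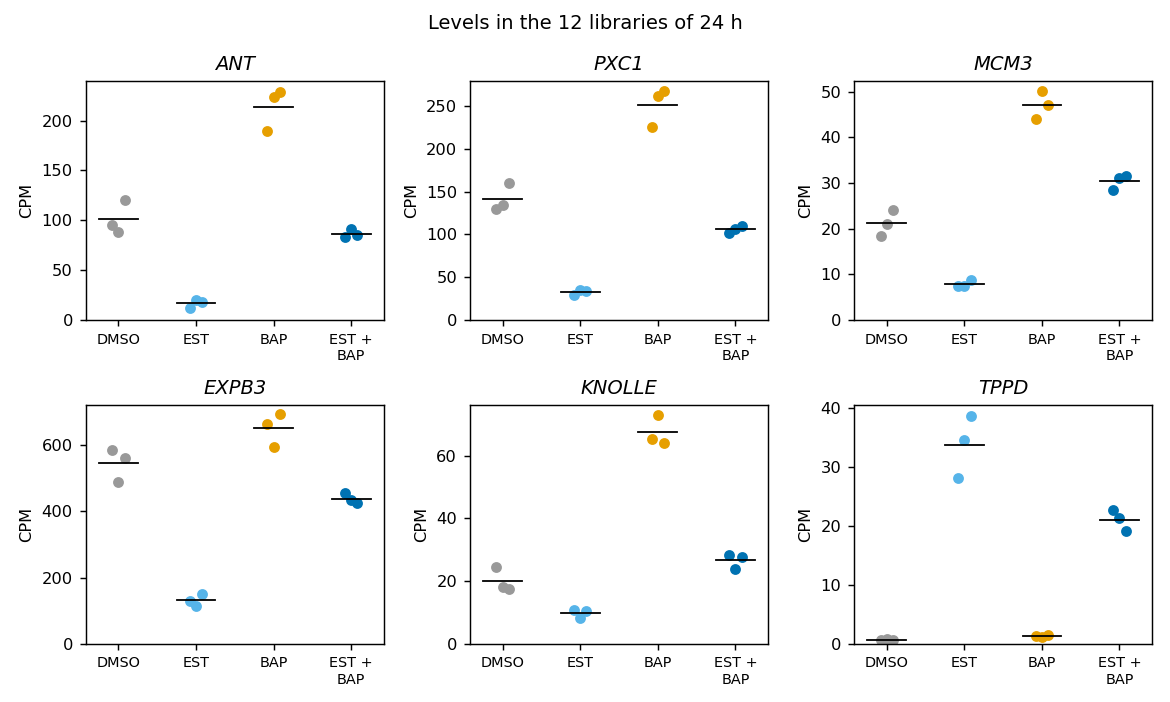
Levels (CPM, linear axes from 0) of ANT, PXC1, MCM3, EXPB3, KNOLLE and TPPD in each of the 12 libraries of 24 h, with the group mean as a line. The EST + BAP libraries lie between the EST and BAP libraries in all 6 genes; ANT stands at 83.0 to 90.8 CPM with EST + BAP and 190.0 to 229 CPM with BAP.

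**Figure D5:**
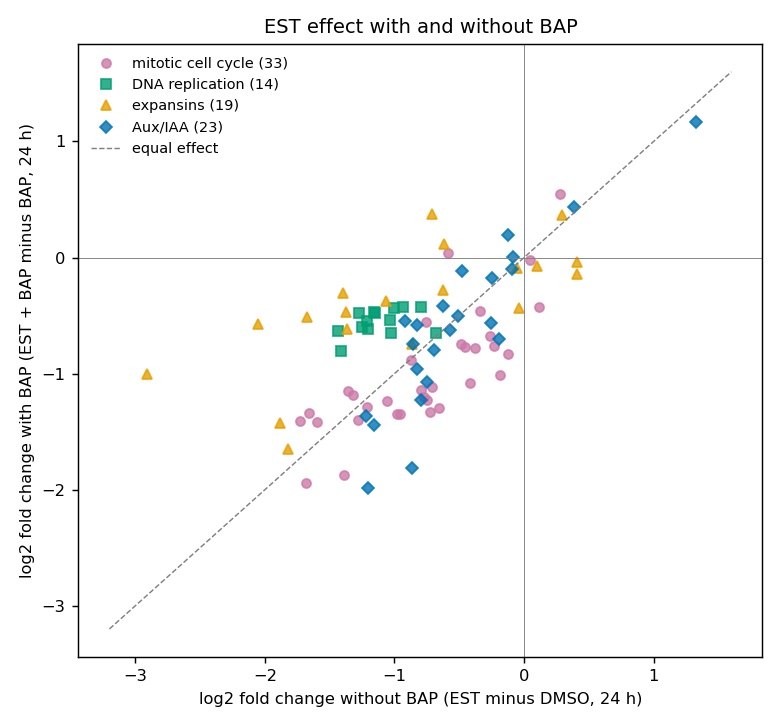
Log2 fold change of EST against DMSO (x axis) and of EST + BAP against BAP (y axis) at 24 h for the tested Aux/IAA, mitotic, DNA replication and expansin genes; the dashed line marks equal effects. All 14 replication genes lie above the line, with medians of -1.16 on the x axis and -0.54 on the y axis, and most mitotic genes lie below it, with medians of -0.75 and -1.14.

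The genes with the largest called changes included several with few counts. GA2OX7 (AT1G50960), an enzyme that inactivates gibberellin, had 0 counts in the 3 BAP libraries and 437 over the EST + BAP libraries, at 4.85, 4.27 and 4.26 CPM, which was at least 100.4-fold higher against the floor of 3 counts. The related GA2OX2 rose from 9.50, 6.20 and 7.12 CPM to 33.5, 32.7 and 33.0 CPM (2.13 ± 0.13, adjusted p = 2.47e-05). AT5G52720, annotated as a copper transport family protein, rose from 0, 0.116 and 0.137 CPM to 5.37, 5.30 and 6.37 CPM. The glutathione transferase gene GSTU11 had 2 counts with BAP and 198 with EST + BAP, a ratio of 68.2 with a 95% counting interval of 18.6 to 567, and the aspartyl protease gene AT4G22050 had 2 and 343, a ratio of 118 (32.5 to 980). AT2G07741 rose from 0.246, 0 and 0 CPM to 143, 55.3 and 137 CPM but has near-identical copies, among them mitochondrial genes, and is uncertain. Of the largest falls, CWINV5 (AT3G13784), a cell wall invertase that splits sucrose, went from 102, 98.6 and 131 CPM to 9.52, 9.05 and 6.41 CPM (-3.72 ± 0.17, adjusted p = 9.38e-06). AT3G16070 fell from 12.9, 12.1 and 14.9 CPM to 0.821, 0.482 and 0.621 CPM. The anthocyanin gene DFR, at 1.87, 0.388 and 0.685 CPM with BAP and 0.0746, 0 and 0.124 CPM with EST + BAP, fell by 4.08, and PGL5 was called at -3.67, though not without EST + BAP replicate 2 or 3 (adjusted p = 0.0802 and 0.0577). The mitochondrial ATMG00290 had -6.12, and AT2G30362, which lies over SIP4 for 1823 bases, had 45 counts with BAP and 0 with EST + BAP, at least 21.8-fold lower, and was not called in a joint fit of all 4 groups (adjusted p = 0.0654).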

How the data were processed

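Total RNA of the root segments was depleted of ribosomal RNA and made into strand-specific TruSeq libraries. The study's methods and the submitters' processing notes name Trimmomatic 0.36 for adapter removal and kallisto 0.43.0 for quantification against the AtRTD2 transcripts, and the authors deposited the result as a table of estimated counts per gene, already whole numbers and not normalised. The kallisto strand option is not given in the sources used here. Overlaps are named for some genes only, so a gene without one named can still share bases with another. All 24 columns match a sample by name.

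Counts were tested with edgeR 4.0.16 (glmQLFit and glmQLFTest, TMM, filterByExpr with a minimum count of 10) in R 4.3.3, on the 6 libraries of the main comparison and on the 12 libraries of 24 h for the interaction term. The size threshold of 0.5 and the adjusted p of 0.05 are those the study's methods give for its RNA-seq tests; another methods paragraph prints 0.05 as the size threshold, which was run as an alternative. No library was a repeat of another, since replicate pairs differed beyond counting noise (chi-square of at least 7.06 for each degree of freedom). The pairs with EST + BAP replicate 2 differed most, at 42.9 and 32.5, beside 7.06 to 12.2 for the other pairs. The members and the 33 gene lists were chosen with earlier results of these data known. The genes named are AXR3, up to 4 called members of each list with the smallest adjusted p and any called member against its list's majority, the cambium genes of the study, the 6 largest rises and 6 largest falls whose groups do not overlap with at least 10 counts in every library of the higher group, and the 6 smallest interaction p-values. Other list members named beside them were chosen after their values were seen. Gene positions and windows come from RefSeq TAIR10.1, matched by locus for 33437 of 34212 genes, and blastn 2.17.0 was used to find copies sharing 95% or more of their bases over 50% of the transcript. Counts were simulated from the means and library sizes of the main comparison, over 20871 and 20880 genes. Of 200 genes changed by 0.75 on the log2 scale 71.0% were called, and of 200 changed by 1 83.0%, with 6 and 10 false calls. For the interaction term, 65.0% of 200 changed by 1 and 89.0% of 200 changed by 2 were called, with 5 and 12 false calls. Far more than 200 genes were called in the main comparison, and adjusted p depends on that share, so recovery in these data can differ. P-values set a difference between groups against the spread between these libraries, which was estimated partly across genes. The counting interval and the floor of 3 counts cover counting error only. Alternatives were DESeq2 1.42.0 and its size factors, no filter, a replicate block, other genes, depths or libraries in the fit and other size thresholds. Some of the genes the rule names are not reported here.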

Additional observations from a re-analysis of the deposited data

Results flagged for a closer look

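For 22 of the named genes the EST effect at 24 h differed with and without BAP, by the interaction term of edgeR's quasi-likelihood test with Benjamini-Hochberg adjustment. All values are log2 differences (EST effect with BAP minus EST effect without BAP), and causes were not tested. The difference was positive for AT1G68570 (1.64), a major facilitator transporter, for AT4G24340 (1.40), a phosphorylase family protein, for AT4G14060 (1.79), a polyketide cyclase family protein, and for the ABC transporter gene ABCC13 (1.21), of which AT1G68570 and ABCC13 overlap other annotated genes. Among wall genes it was positive for EXPA15 (1.91), EXPB3 (1.48) and XTH20 (1.18) and negative for XTH16 (-2.54). Among cambium genes it was 1.27 for ANT, 0.87 for PXC1 and 1.54 for HCA2, where HCA2 had log2 fold changes of -0.90 for EST against DMSO and 0.64 for EST + BAP against BAP. It was 0.80 for MCM3, 0.66 for MCM5 and 0.58 for XCP1. Negative differences were found for AXR3 (-0.70), TPPD (-1.53), GA2OX4 (-2.07), KRP1 (-0.73), TTG2 (-1.82), PIP3 (-0.84) and AT2G34510 (-1.38), a gene of a protein of unknown function. AT2G07741 had 11.78, and its counts are uncertain because of its copies. Of the 22, 10 were called under every alternative run, namely AXR3, AT1G68570, EXPA15, ABCC13, AT2G34510, PXC1, AT4G14060, AT4G24340, EXPB3 and ANT. The others lost their call under between 1 (MCM5 and HCA2) and 12 (XTH16) of 18 alternatives.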

How the results depend on the processing

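For the 152 named genes, no called fold change and no called interaction term changed its direction under any alternative run. Among fold changes and interaction terms that were not called, 116 alternative values had another sign. These include interaction terms of genes called in the main comparison, such as SHY2. Direction was not compared for the other called genes. The counts of 2447 higher and 2480 lower genes stayed within 1.5 times under DESeq2 (2427 and 2358), its size factors, no filter, organelle and ribosomal RNA genes left out, thinned counts and a fit of all 4 groups, and ranged from 2249 to 2577 and from 2193 to 2559 when 1 library was left out. They followed the size threshold, with 4317 and 4467 at 0.05, and 849 and 742 at 1. The interaction counts of 213 positive and 92 negative genes were less stable. They were 552 and 352 under DESeq2, 45 negative with thinned counts, and ranged from 79 to 171 and from 17 to 73 when 1 library was left out. The replicate numbers did not meet the criterion for pairing (every correlation over 0.1) in the main comparison, since same-numbered BAP and EST + BAP libraries deviated from their group means with correlations of 0.31, 0.09 and 0.13, and 4 of 6 libraries correlated best with their own number. Of the 6 pairs of groups at 24 h, only DMSO and BAP met it (0.27, 0.11 and 0.19, with 6 of 6 libraries best with their own number), and pairs with EST did not. With the replicate number as a block, 2585 higher, 2557 lower, 355 positive and 156 negative genes were called. Of 152 named genes, 29 changed their call without some library. The depth limits genes with few counts, such as PR2 and GA2OX7, which had none with BAP.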

Other observations

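Members of other families were called in part, beside 11.6% of all genes tested called higher and 11.8% called lower. Aquaporin genes, which encode water channels, were called higher for 5 and lower for 5 of 20 tested, with 3 higher without EST + BAP replicate 1. PIP2;5 stood at 21.6, 22.5 and 22.5 CPM in the BAP libraries and 47.8, 52.0 and 55.2 CPM in the EST + BAP libraries, and rose by 1.22 on the log2 scale (SE 0.07, adjusted p = 2.10e-05 from edgeR). PIP1C stood at 374, 335 and 379.9 CPM and 216, 195 and 185 CPM, and fell by 0.87. The libraries of the groups did not overlap in either gene, as in 98.7% of called genes and 53.6% of all genes tested. Ethylene is made by ACC synthases and ACC oxidases, and of 11 such genes 3 were called higher and 1 lower, with 2 lower without EST + BAP replicate 1 and 3 without BAP replicate 2. The oxidase gene ACO1 stood at 29.4, 23.1 and 26.9 CPM with BAP and 59.5, 75.3 and 79.6 CPM with EST + BAP, and rose by 1.44 (SE 0.13). The synthase gene ACS2 fell by 1.45, from 30.4, 18.3 and 20.7 CPM to 11.1, 7.85 and 6.54 CPM. Another synthase gene, ACS7, was called higher (0.53), though not without EST + BAP replicate 1 or 2 or BAP replicate 2 or 3 (0.37 at the smallest). Of 10 gibberellin oxidases 2 were called higher and 2 lower, the latter being GA2OX4, from 2.12, 1.55 and 1.69 CPM to 0.560, 0.607 and 0.621 CPM, and GA2OX8, from 0.640, 0.737 and 0.411 CPM to 0.112, 0.230 and 0.124 CPM. The trehalose phosphatase gene TPPI fell by 0.74. Of 5 growth-regulating factors GRF2 was called lower (-0.56, adjusted p = 0.0278 from edgeR), and was not called with DESeq2 or when any library other than EST + BAP replicate 2 was left out (-0.45 at the smallest).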
